A study of Mus musculus with 9 samples.

Results

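Th, Dbh, Ddc, Slc18a1, Slc18a2, Slc6a2, Maoa, Chga and Chgb, the genes that make, store, take up and break down catecholamines together with the chromogranins of the vesicles that hold them, were examined in whole NB9464 tumors. They were chosen by symbol, and all 9 were rows of the count table, which held 54429 gene symbols. Th, which opens the pathway, had no count in any tumor, and Dbh, which makes noradrenaline, had 1 count in 1 tumor. Ddc, Slc18a2 and Maoa were counted in every tumor, and Ddc had its highest counts in the vehicle tumors. The main test called no difference of Ddc between groups.

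NB9464 is a mouse neuroblastoma line that the study describes as MYCN-amplified. As background, it derives from a tumor of a mouse carrying a MYCN transgene under a tyrosine hydroxylase promoter, and it is a single line. The study implanted the cells under the skin of wild-type C57BL/6 mice aged 4 to 6 weeks and began treatment when tumors reached 250 mm3, so every tumor also contained host cells. The groups were Rad + R788 + anti-PDL1, R788 + anti-PDL1 and vehicle, with 3 tumors each. Rad was 10 Gy of radiation. R788 (fostamatinib, at 50 mg/kg) is a prodrug that inhibits the kinase Syk, and the anti-PDL1 antibody blocks a ligand of a T cell checkpoint. Per the labels R788 was given 5 times and anti-PDL1 4 times a week, while the series text gives 4 treatment doses between day 28 and day 37 without naming the agents. The tumors given radiation are called irradiated tumors below, and all of them also received R788 and anti-PDL1. The labels do not say whether vehicle mice received a control antibody, nor that each library of a group came from another mouse, so p-values measure the spread between these samples. No group received R788 or anti-PDL1 alone, so the effects of these agents cannot be told apart, and radiation was given only on top of both.

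Catecholamines are made from tyrosine in a fixed order of steps. Tyrosine hydroxylase (Th) makes L-DOPA, the aromatic amino acid decarboxylase (Ddc) makes dopamine, dopamine beta-hydroxylase (Dbh) makes noradrenaline inside vesicles, and Pnmt makes adrenaline. The vesicular transporters VMAT1 (Slc18a1) and VMAT2 (Slc18a2) load the amines into vesicles, the noradrenaline transporter (Slc6a2) takes them back into the cell, and monoamine oxidase A (Maoa) degrades them on mitochondria. Chromogranins A and B (Chga, Chgb) are acidic proteins packed with the amines in dense-core vesicles. Sympathetic neuroblasts and chromaffin cells use this pathway, though not all of them its last step to adrenaline. Catecholamine breakdown products and uptake through the noradrenaline transporter serve in the clinic to detect neuroblastoma. Ddc, Maoa and Slc18a2 are also used outside this lineage. Ddc decarboxylates other aromatic amino acids in many tissues, Maoa is widely expressed, and VMAT2 also loads serotonin and histamine, for instance in mast cells and platelets.

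A RefSeq window from 250 bases before to 50 bases after the start of transcription (GRCm38.p6) was at hand for 7 of the 9 genes, with 2 windows for Ddc. Both strands were searched for 5 motifs. The cyclic AMP response element TGACGTCA, a site for the CREB family, was found in the windows of Th, Slc18a2 and Chgb, and in 1.79% of the 32851 windows of all genes. It began at position -45 relative to the start in Th, at -4 in Slc18a2 and at -72 in Chgb. These windows are shown because they share the element while the 3 genes differed widely in their counts. The element is in capitals, 5′ to 3′ on the strand of the gene.
Th, chr7:142899946-142900245, minus strand: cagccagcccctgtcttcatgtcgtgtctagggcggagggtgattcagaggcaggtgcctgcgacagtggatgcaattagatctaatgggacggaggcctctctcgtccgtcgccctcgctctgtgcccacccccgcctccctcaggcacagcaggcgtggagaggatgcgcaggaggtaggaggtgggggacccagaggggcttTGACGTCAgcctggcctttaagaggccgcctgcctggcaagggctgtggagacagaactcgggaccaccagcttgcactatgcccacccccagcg
Slc18a2, chr19:59260628-59260927, plus strand: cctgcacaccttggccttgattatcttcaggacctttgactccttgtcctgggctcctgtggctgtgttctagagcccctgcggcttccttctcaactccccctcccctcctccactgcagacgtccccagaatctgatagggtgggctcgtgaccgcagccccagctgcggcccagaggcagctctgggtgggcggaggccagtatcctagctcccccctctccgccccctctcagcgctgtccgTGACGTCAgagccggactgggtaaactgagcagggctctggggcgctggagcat
Chgb, chr2:132781392-132781691, plus strand: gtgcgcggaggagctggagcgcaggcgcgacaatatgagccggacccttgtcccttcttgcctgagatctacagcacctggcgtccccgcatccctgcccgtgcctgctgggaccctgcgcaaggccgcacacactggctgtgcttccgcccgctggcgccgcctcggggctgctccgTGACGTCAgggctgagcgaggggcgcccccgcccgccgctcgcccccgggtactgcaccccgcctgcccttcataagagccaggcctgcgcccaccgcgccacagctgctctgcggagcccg

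The shorter core TGACG, which also lies within the full element, was found on either strand in the windows of Dbh, Chga and Maoa as well, and in 20.8% of all windows. The TATA box TATAAA was found on the other strand at position -68 of the upstream Ddc window. It was found on the gene's own strand at position 5 of the Chga window, and in 13.6% of all windows. The HAND E-box CATCTG (17.2% of all windows) and the paired homeodomain site (0.487%) were not found in the windows of these genes, which says only that those letters are not in them. Neither Ddc window held the cyclic AMP response element or its core. Mouse Ddc is transcribed from alternative start sites, used differently in neuronal and other tissues, and the count table sums them. Both windows are shown, in lower case throughout, because a Ddc count cannot be assigned to either.
Ddc, upstream window, chr11:11898095-11898394, minus strand: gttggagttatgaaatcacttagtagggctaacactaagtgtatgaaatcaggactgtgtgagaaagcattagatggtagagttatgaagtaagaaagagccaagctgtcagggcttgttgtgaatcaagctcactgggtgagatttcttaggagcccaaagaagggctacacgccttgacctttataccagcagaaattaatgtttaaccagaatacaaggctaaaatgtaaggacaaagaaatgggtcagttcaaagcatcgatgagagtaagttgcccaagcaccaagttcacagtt
Ddc, downstream window, chr11:11890359-11890658, minus strand: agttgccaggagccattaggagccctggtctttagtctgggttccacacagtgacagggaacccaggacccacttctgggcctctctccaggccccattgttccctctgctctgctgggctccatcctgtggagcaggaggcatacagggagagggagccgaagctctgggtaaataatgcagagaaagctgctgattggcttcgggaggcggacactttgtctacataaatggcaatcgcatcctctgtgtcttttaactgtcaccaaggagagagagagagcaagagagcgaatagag

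Each library held 18276683 to 23397886 counts. A count of 0 allows up to 3 counts, or 0.115 to 0.221 CPM, the count per normalized library size used here, and such floors cover counting error only. Rad + R788 + anti-PDL1 replicate 1 stood apart. Across genes, its Pearson r of log2 CPM was 0.865 to 0.907 with the other libraries and 0.937 to 0.98 among those 8. Its normalization factor was 0.743 (0.975 to 1.12 elsewhere), and its mitochondrial share of counts was 1.97% (3.48% to 5.71% elsewhere). Differences of the 9 genes that changed by much without it are given both ways. The tumors had the neuroblastoma genes Hand2 (6545 to 12901 counts per library), Mycn (1265 to 6107), Uchl1 (1411 to 7856) and Prph (1365 to 3155), named here after their values were seen. These genes belong to lists of 10 sympathetic lineage transcription factors and 12 neuroblast and neuronal markers, of which only 5 and 6 passed a filter on low counts. The tumors had no count of the neuronal genes Elavl4 and Dcx. Hand1 and Nefm had 1 count each, Nefl 6 and Elavl3 30 over all tumors, and were also named after their values were seen.

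Genes differed most in whether they were counted at all. Th (7:142892752-142931128 of GRCm38, minus strand, ENSMUSG00000000214.11) had 0 counts in all 9 libraries. Over the 184963450 counts of the 9 libraries together this allows up to 0.0162 CPM. Dbh (2:27165233-27183200, plus strand, ENSMUSG00000000889.8) had 1 count, in Rad + R788 + anti-PDL1 replicate 3, and 0 in the other 8 libraries. Pnmt, the next enzyme of the pathway, had 0 counts in every library. A count of 0 in every library was common, being found for 4139 of 21829 protein-coding symbols with a single identifier, or 19.0%. No comparison between groups was possible at this depth for Th or Dbh.

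**Figure D1:**
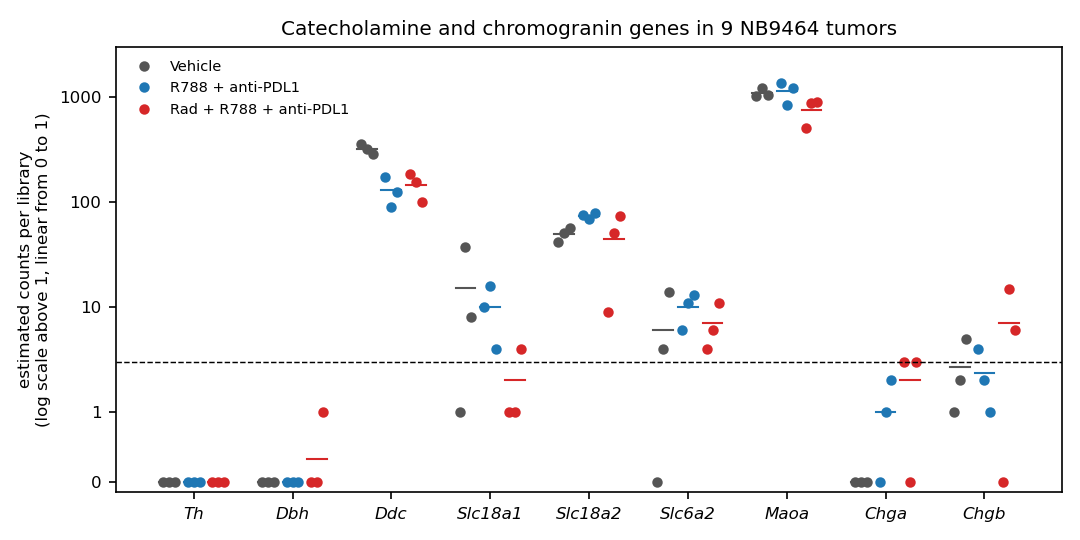
Estimated counts of the 9 genes in each library, by group, on a log axis that is linear from 0 to 1. Points are tumors, short lines are group means, and the dashed line marks the 3 counts that a count of 0 allows. Th and Dbh lie at 0 or 1, Chga at 0 to 3, and Ddc, Slc18a2 and Maoa above the line in all 9 tumors, with every vehicle tumor highest for Ddc.

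The chromogranins were at or near the floor. Chga (12:102554969-102565028, plus strand, ENSMUSG00000021194.6) had 0 counts in the 3 vehicle libraries, 0, 1 and 2 with R788 + anti-PDL1 and 3, 0 and 3 in the irradiated tumors, a total of 9. Chgb (2:132781278-132795079, plus strand, ENSMUSG00000027350.8) had 1, 2 and 5 counts with vehicle, 4, 2 and 1 with R788 + anti-PDL1 and 0, 15 and 6 in the irradiated tumors. Its total was 36, with more than 3 counts in 4 of 9 libraries. The highest Chgb value, 0.761 CPM, came from Rad + R788 + anti-PDL1 replicate 2, and the groups overlapped. Neither gene passed the filter on low counts, so no test was made.

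Of the vesicular transporters, Slc18a2 (VMAT2, 19:59260896-59296012, plus strand, ENSMUSG00000025094.8) was counted in every tumor. Its counts were 42, 51 and 56 with vehicle, 76, 69 and 78 with R788 + anti-PDL1, and 9, 51 and 73 in the irradiated tumors. The lowest value came from the library that stood apart, and the 3 groups overlapped in CPM. An antisense gene, Gm29261, overlaps an exon of Slc18a2 by 111 bases and had no count in any library. Slc18a1 (VMAT1, 8:69037711-69089235, minus strand, ENSMUSG00000036330.12) had 1, 37 and 8 counts with vehicle, 10, 16 and 4 with R788 + anti-PDL1 and 1, 1 and 4 in the irradiated tumors. Vehicle replicate 2 held 37 of its 82 counts, while vehicle replicate 1 had 1. Per kilobase of exon, Slc18a2 exceeded Slc18a1 in all 9 libraries, by a ratio from 1.43 in vehicle replicate 2 to 52.7 in Rad + R788 + anti-PDL1 replicate 2, the latter resting on 1 Slc18a1 count.

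The noradrenaline transporter Slc6a2 (8:92960079-93001667, plus strand, ENSMUSG00000055368.14) had 0, 4 and 14 counts with vehicle, 6, 11 and 13 with R788 + anti-PDL1 and 4, 6 and 11 in the irradiated tumors. It thus passed 3 counts in 8 of 9 libraries, with 69 counts in all. Its mean was 0.316 ± 0.401 CPM (SD, n = 3) with vehicle, 0.406 ± 0.135 with R788 + anti-PDL1 and 0.367 ± 0.117 in the irradiated tumors. The vehicle tumors spanned the range of both treated groups.

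Monoamine oxidase A was the most abundant of the 9. Maoa (X:16619698-16687818, plus strand, ENSMUSG00000025037.6) had 1024, 1213 and 1036 counts with vehicle, 1367, 849 and 1232 with R788 + anti-PDL1 and 504, 877 and 890 in the irradiated tumors. In CPM the vehicle tumors lay close together, at 55.9 ± 1.27 (SD, n = 3), and the irradiated tumors lower, at 40.8 ± 3.66. The R788 + anti-PDL1 tumors spread around the vehicle level, at 47.7 ± 14.1, from 32.5 to 60.3.

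Ddc (11:11814101-11898144, minus strand, ENSMUSG00000020182.16) had 356, 319 and 289 counts with vehicle, 175, 90 and 126 with R788 + anti-PDL1, and 185, 154 and 99 in the irradiated tumors. The lowest vehicle count exceeded the highest count of either treated group. On the normalized scale the values were 19.7, 14.3 and 15.8 CPM with vehicle, 7.72, 3.44 and 5.16 with R788 + anti-PDL1 and 13.6, 7.81 and 4.52 in the irradiated tumors. The highest irradiated value again came from the library that stood apart. Lower CPM without overlap with vehicle was found for 16.5% of all genes in R788 + anti-PDL1 and 11.2% in the irradiated tumors. The noncoding 1700042O10Rik (4 to 55 counts) lies across Ddc on the other strand without sharing exon sequence.

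Levels of different genes were compared per kilobase of exon, scaled to the same sum over genes in each library, here called the per-length level. Averaged over the 9 libraries it was 34.0 for Maoa, 6.40 for Ddc and 1.52 for Slc18a2, above 80.6%, 55.4% and 45.1% of protein-coding genes. The other 6 followed with 0.229 for Slc18a1, 0.219 for Chgb, 0.173 for Slc6a2, 0.0488 for Chga, 0.00607 for Dbh and 0 for Th. The ranges of Maoa (15.1 to 45.5), Ddc (2.61 to 12.2) and Slc18a2 (0.216 to 2.06) did not overlap one another. The ranges of Slc18a1, Chgb and Slc6a2 did, and the order of Chgb and Slc6a2 turned when length was left out. Against the 3 counts that the absence of Th counts allows, Ddc was at least 15.9-fold higher per kilobase in R788 + anti-PDL1 replicate 2 and at least 62.9-fold higher in vehicle replicate 1, the ends of the range.

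Only 4 of the 9 genes (Ddc, Slc18a2, Slc6a2 and Maoa) passed the filter on low counts (filterByExpr in edgeR, minimum count 10), as did 62.7% of the protein-coding symbols and 15931 genes in all. Group differences are log2 fold changes with their SE from edgeR's quasi-likelihood test on all 9 libraries, two-sided, with p adjusted by Benjamini-Hochberg over all 15931 genes and a gene called at an adjusted p under 0.05. With 3 tumors a group, exact permutation reaches no p below 0.1, so it was not used. The vehicle tumors serve in 2 of the comparisons, which are therefore not independent. In whole tumors, fewer cells of a type and less RNA per cell cannot be told apart.

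The comparison of R788 + anti-PDL1 with vehicle addressed what the drug pair changed in large tumors. None of the 4 genes tested was called by edgeR, where 0.678% of all genes were (108 of 15931). That total was 0 when replicate 2 or 3 of vehicle, or replicate 1 or 3 of the treated group, was left out, and 34 without replicate 2 of the treated group. Ddc had the largest difference of the 4, a log2 fold change of -1.61 ± 0.44, or 0.328 times the vehicle level, with a raw p of 0.00473 and an adjusted p of 0.155. All 3 treated tumors lay below all 3 vehicle tumors. Such a lower, non-overlapping pattern was found for 16.5% of all genes, and a raw p under 0.05 for 11.7%, so neither sets Ddc apart. DESeq2 called Ddc lower (-1.59 ± 0.45, adjusted p = 0.0153), as it did 1.58% of the 18094 genes it tested. An edgeR fit of only the 6 libraries compared also called it (-1.58 ± 0.31, adjusted p = 0.0404), with 1.73% of all genes called lower, and so did limma-voom with sample quality weights (-1.54 ± 0.20, adjusted p = 0.000393), which called 17.1% of all genes lower. None of the 6 edgeR fits that left out a library called it, with adjusted p from 0.217 to 0.498.

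The other 3 genes had smaller differences in this comparison. The log2 fold change was -0.23 ± 0.23 for Maoa (adjusted p = 0.780). Without R788 + anti-PDL1 replicate 2 it was -0.016, and without replicate 1 of that group it was -0.43. For Slc18a2 it was 0.26 ± 0.53 (adjusted p = 0.899). For Slc6a2 it was 0.37 ± 0.98 (adjusted p = 0.928), an SE too wide to limit a change at this depth, and without vehicle replicate 1 it was -0.18. The median of the 4 genes was 0.015, beside -0.018 over all genes tested.

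**Figure D2:**
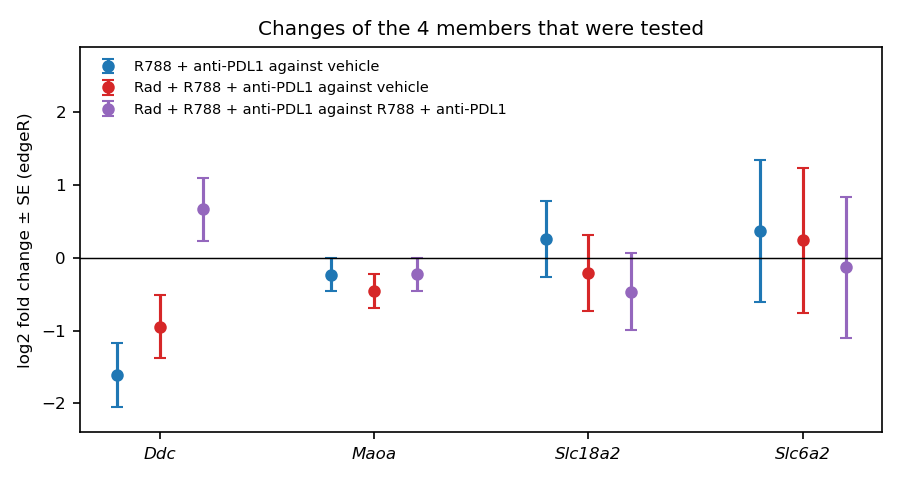
Log2 fold change ± SE (edgeR, 9 libraries) of the 4 genes that passed the filter, in the 3 comparisons, with a line at 0. Ddc lies below 0 in both comparisons with vehicle, at -1.61 and -0.94, and Slc6a2 has the widest errors. No point had an adjusted p under 0.05.

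The comparison of irradiated tumors with vehicle addressed the change under all 3 agents. Again 0 of the 4 genes were called by edgeR, against 0.0439% of all genes (7 of 15931, or 57 genes without Rad + R788 + anti-PDL1 replicate 1), and none of the 4 had a raw p under 0.05, where 13.2% of all genes did. DESeq2, which called 3.15% of the genes it tested, and limma-voom called none of the 4 either. By edgeR the log2 fold change of Ddc was -0.94 ± 0.43 (adjusted p = 0.383), and that of Maoa was -0.46 ± 0.23 (adjusted p = 0.405). Both genes were lower in 3 of 3 irradiated tumors than in any vehicle tumor, as were 11.2% of all genes. Ddc depended on Rad + R788 + anti-PDL1 replicate 1. Without it the Ddc difference was -1.41 (adjusted p = 0.153 by edgeR) and -1.42 by DESeq2, which then called it (adjusted p = 0.00917) and called 1.72% of genes lower. Limma-voom with sample quality weights also called Ddc (-1.35 ± 0.26, adjusted p = 0.0109), together with 5.86% of all genes in the same direction.

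Slc18a2 differed by -0.21 ± 0.53 (adjusted p = 0.856) and turned to 0.24 without Rad + R788 + anti-PDL1 replicate 1. Slc6a2 differed by 0.24 ± 1.0 (adjusted p = 0.917) and turned to -0.32, -0.05 and -0.07 without vehicle replicate 1, vehicle replicate 2 and Rad + R788 + anti-PDL1 replicate 3. The median of the 4 genes was -0.33, beside 0.05 over all genes tested.

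**Figure D3:**
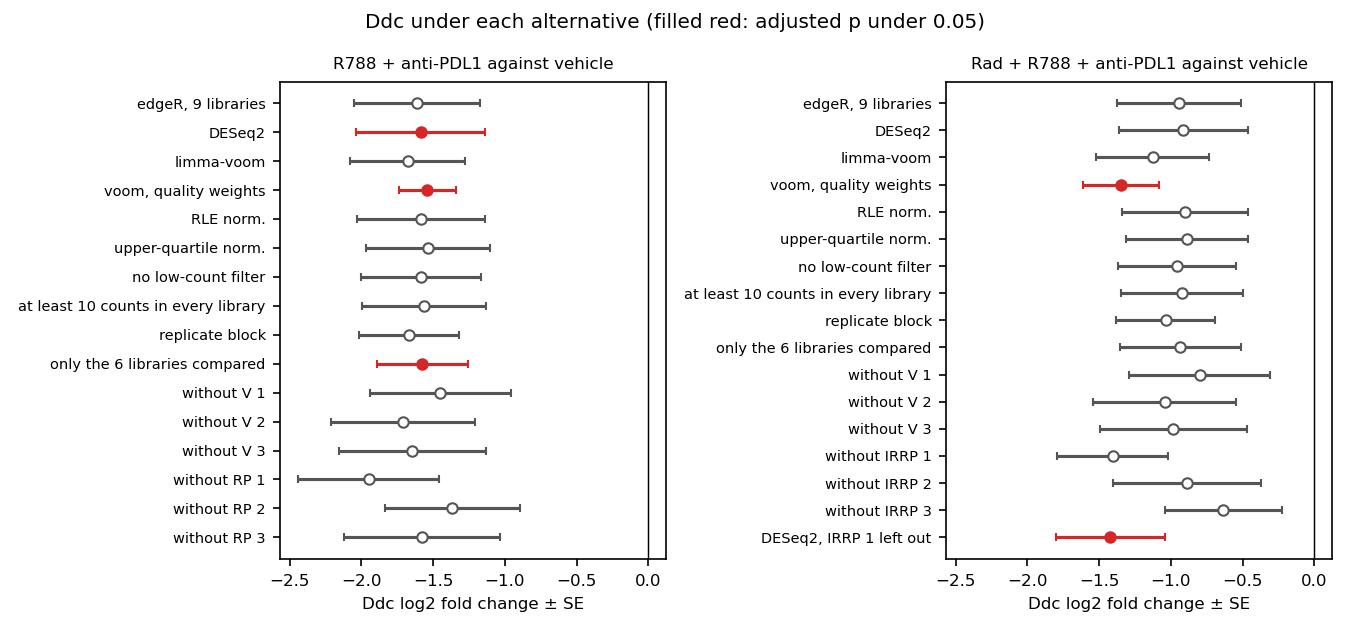
Ddc log2 fold change ± SE against vehicle under each method and with each library left out, for R788 + anti-PDL1 (left) and for the irradiated tumors (right). V is vehicle, RP is R788 + anti-PDL1, IRRP adds radiation to RP, and red filled points had an adjusted p under 0.05. All points lie below 0, from -1.95 to -1.37 on the left and from -1.42 to -0.64 on the right, and few are filled.

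The irradiated tumors were also compared with R788 + anti-PDL1, which share the drugs. None of the 4 genes was called, and 0.00628% of all genes were (1 of 15931, or 21 genes without Rad + R788 + anti-PDL1 replicate 1). At a raw p under 0.05 there were 0 of the 4, against 18.4% of all genes, and DESeq2 called none of the 4, against 4.06% of the genes it tested. The log2 fold change of Ddc was 0.67 ± 0.43 (adjusted p = 0.407), with overlapping groups. It was 0.19 without Rad + R788 + anti-PDL1 replicate 1. On the per-length scale that library had a Ddc level of 5.19, and the irradiated tumors (3.26 to 5.45) then covered nearly the same range as R788 + anti-PDL1 (2.61 to 5.44), both below vehicle (9.40 to 12.2). That scale uses no normalization factor and also lowered Maoa in that library, to 15.1 against 33.2 and 31.4 in the other irradiated tumors. In CPM these Maoa values were 37.2, 44.5 and 40.6. The log2 fold change between the treated groups was -0.23 ± 0.23 for Maoa, -0.47 ± 0.53 for Slc18a2 and -0.13 ± 0.97 for Slc6a2, with adjusted p from 0.593 to 0.95. Without Rad + R788 + anti-PDL1 replicate 1 that of Slc18a2 was -0.037 and that of Maoa -0.16. Slc6a2 turned to 0.11 without R788 + anti-PDL1 replicate 3 and to 0.0028 without Rad + R788 + anti-PDL1 replicate 1. The median of the 4 was -0.18, beside 0.04 over all genes.

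Among the 4 tested genes, Pearson r of log2 CPM across the 9 libraries was 0.57 for Ddc and Maoa (0.78 over the 8 without Rad + R788 + anti-PDL1 replicate 1), -0.40 for Ddc and Slc18a2 (-0.48) and 0.40 for Slc18a2 and Maoa (0.03). For Slc6a2 it was 0.22 with Slc18a2 (0.68 over the 8), -0.52 with Ddc (-0.54) and -0.29 with Maoa (-0.32). These values are descriptions, since the libraries share groups and depth. The genes whose pattern was most like that of Ddc were Snx21 (r = 0.98) and Kctd5 (0.97), and for Maoa they were Sgta (0.99) and Card14 (0.98). For Slc18a2 they were Tstd2 (0.99) and Rab5b (0.98), with 0.89 and 0.79 over 8 libraries, and for Slc6a2 they were Slc25a53 and AC139131.1 (0.91 each). Each was picked for the highest r among the tested genes over only 9 libraries. A high r was thus built into the choice and shows no specific link.

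The genes around the missing enzymes were mostly present. Of 8 further genes for synthesis and its tetrahydrobiopterin cofactor, 7 were tested and none was called in any comparison. Cyb561, the vesicle cytochrome that supplies electrons for Dbh, had 1309, 3770 and 2854 counts with vehicle, 884, 1233 and 993 with R788 + anti-PDL1 and 3671, 3949 and 4051 in the irradiated tumors. The R788 + anti-PDL1 tumors were lowest and overlapped neither other group. Of all genes, 16.5% were lower than vehicle without overlap in R788 + anti-PDL1. Between the treated groups 14.2% were lower without overlap in R788 + anti-PDL1, and the share meeting both conditions was not determined. By edgeR, R788 + anti-PDL1 differed from vehicle by a log2 fold change of -1.65 ± 0.31 (adjusted p = 0.0593), and it was 2.37 ± 0.32 for the irradiated tumors against R788 + anti-PDL1 (adjusted p = 0.110). A gene on the other strand, Gm9910, shares exon sequence with Cyb561, so its count is uncertain. Qdpr, which recycles the cofactor, had 1427 to 2977 counts. It was lower in the R788 + anti-PDL1 tumors than in any tumor of the other groups in CPM, where the same shares of all genes apply (16.5% and 14.2%). The log2 fold change was -0.43 ± 0.37 against vehicle (adjusted p = 0.739). For the irradiated tumors against R788 + anti-PDL1 it was 0.98 ± 0.38 (adjusted p = 0.240). Rad + R788 + anti-PDL1 replicate 1 had 219.6 CPM, against 82.25 and 75.85 in the other irradiated tumors. The irradiated and vehicle tumors overlapped for Qdpr. Its count is uncertain too, since Gm42413 shares exon sequence on the other strand. Gch1, which opens cofactor synthesis and was named after its values were seen, had 175 to 202 counts with vehicle and 254 to 435 in the irradiated tumors, a log2 fold change of 0.97 ± 0.24 (adjusted p = 0.192). The median log2 fold change of the 7 was -0.12 in R788 + anti-PDL1 and 0.72 in the irradiated tumors, against vehicle.

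Among 9 further genes for breakdown and transport, 4 were tested and none was called. Akr1a1 (8447 to 15522 counts) and Aldh2 (4289 to 7281 counts), enzymes that clear aldehydes such as those monoamine oxidase produces, were the most abundant. Maob, named after its values were seen, had 0 to 16 counts. The dopamine transporter Slc6a3 had 2 counts in all, and was also named after its values were seen. The median log2 fold change of the 4 was -0.21 in R788 + anti-PDL1 and 0.32 in the irradiated tumors, against vehicle. Maoa, Akr1a1 and Aldh2 were thus at 504 counts or more in every tumor, none of which had more than 1 count of Th or Dbh.

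The other genes of the vesicle divided in the same way. Of 9 further granins and processing enzymes, 4 were tested and none was called. Cpe (1734 to 7220 counts) and Pam (937 to 2268 counts), which trim and amidate peptides, led the list, while Scg2 and Scg3 had at most 3 counts per library and Pcsk1 had 1 count in all, these 3 being named after their values were seen. Their median log2 fold change against vehicle was -0.44 in R788 + anti-PDL1 and 0.48 in the irradiated tumors. Of 12 genes of the vesicle membrane and its release, 8 were tested and none was called. Vamp2 (448 to 1196 counts) and Rab3a (203 to 325 counts), which serve docking and fusion, led this list, and Ptprn2 and Snap25 had no count. The medians were 0.23 and 0.35. They were the same with Rab3c, which had no count with vehicle and was named after its values were seen, at its lower bound. None of 8 co-stored neuropeptides passed the filter. Vip, Adcyap1, Sst and Tac1 had no count, Npy had 0 to 2 and Penk 0 to 8.

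**Figure D4:**
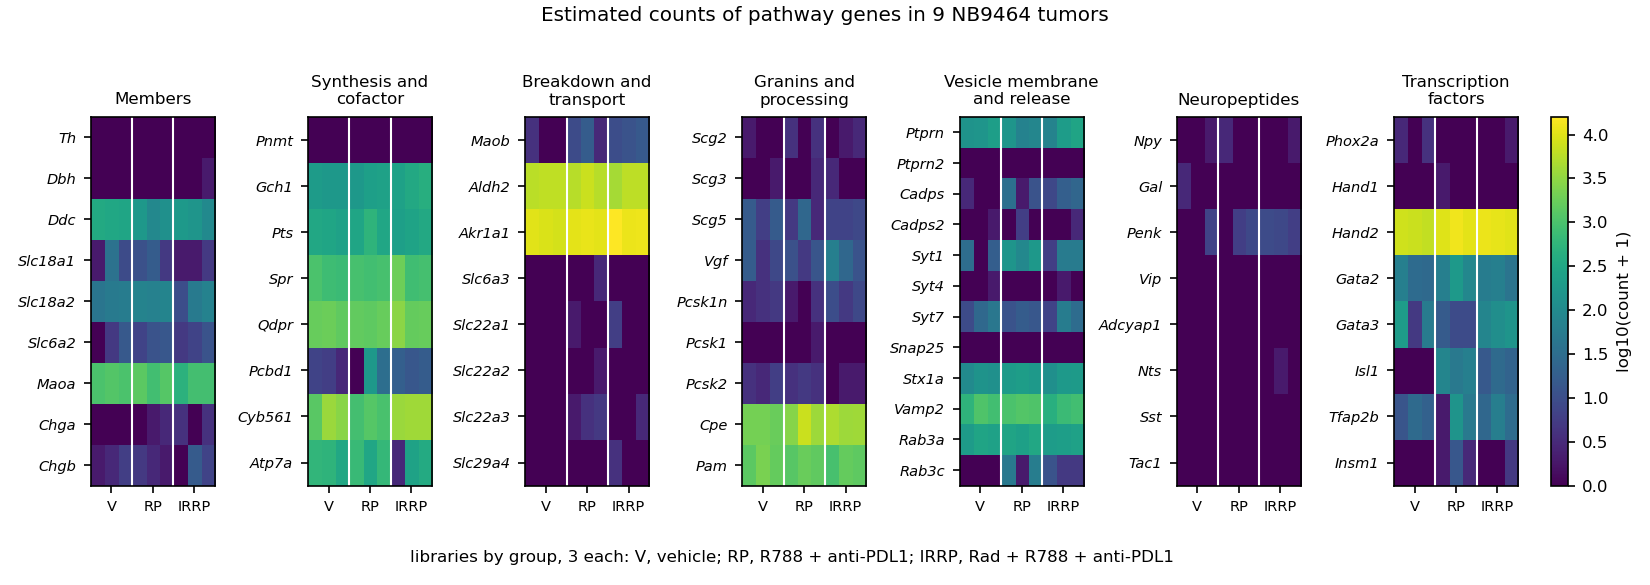
Estimated counts, as log10(count + 1), of the 9 genes (left panel, Members) and of genes of 6 related lists in each library, 3 per group from left to right V (vehicle), RP (R788 + anti-PDL1) and IRRP (with radiation added). Dark rows are at or near 0, as for Th, Dbh, Pnmt and the neuropeptides, and bright rows such as Hand2, Akr1a1, Aldh2 and Cpe lie in every library.

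Isl1 was called among the 10 sympathetic lineage transcription factors, of which 5 were tested. Isl1, a homeodomain factor of sympathetic and other neurons, had 0 counts in all 3 vehicle tumors, 80, 48 and 63 with R788 + anti-PDL1 and 14, 27 and 21 in the irradiated tumors. Set against the vehicle floor of 3 counts per library, its R788 + anti-PDL1 level was at least 17.1-fold higher (adjusted p = 0.0344 by edgeR, higher in 3 of 3 tumors). Over all genes, 0.389% were called higher in that comparison and 13.6% were higher without overlap. In the irradiated tumors Isl1 was at least 7.24-fold higher but missed the threshold (adjusted p = 0.0605). The median log2 fold change of the 5 was 1.11 in R788 + anti-PDL1 and 0.77 in the irradiated tumors, and was the same with Isl1 at its bound. Over all genes tested the medians were -0.018 and 0.05. Of the 5, 4 were above 0 in R788 + anti-PDL1 and 5 in the irradiated tumors. Gata3, named after its values were seen, went the other way in R788 + anti-PDL1 (-3.48 ± 1.08, adjusted p = 0.227), with overlapping groups. Hand2 differed by 0.29 ± 0.25 and 0.77 ± 0.26 (adjusted p = 0.741 and 0.292), and Phox2a, like Hand2 named after its values were seen, had 0 to 3 counts per library.

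Of 12 neuroblast and neuronal markers, 6 were tested and none was called, with a median log2 fold change of 0.41 in R788 + anti-PDL1 and 0.30 in the irradiated tumors. Their summed level ranged from 386 to 437 CPM with vehicle, 394 to 554 with R788 + anti-PDL1 and 416 to 881 in the irradiated tumors. The 881 came from Rad + R788 + anti-PDL1 replicate 1, and the other irradiated tumors had 416 and 428. The vehicle range overlapped that of both treated groups. Of 14 catecholamine receptors, 4 were tested and none was called. The dopamine receptor Drd4 (79 to 176 counts) and the alpha2 adrenoceptor Adra2a (13 to 58 counts) led them, and Adra2c, Drd2, Drd3 and Drd5 had no count. Of the cholinergic genes, the alternative transmitter system of some sympathetic neurons, Chat, Slc18a3 and Slc5a7 had no count and Ache had 11 to 41.

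Ddc also serves serotonin, and Slc18a2 serves serotonin and histamine, so a list of genes for these amines was set beside them. Tph1, which makes the serotonin precursor outside the brain and in mast cells, had 5, 6 and 3 counts with vehicle, 61, 97 and 44 with R788 + anti-PDL1 and 23, 21 and 12 in the irradiated tumors. All treated tumors lay above all vehicle tumors. Tph1 was called higher in R788 + anti-PDL1 by edgeR (log2 fold change 3.49 ± 0.60, adjusted p = 0.0410) and was the call among 3 tested genes of that list, where 0.389% of all genes were called higher. Of the 3, 2 had a log2 fold change above 0. Tph2, of the same list and named after its values were seen, was not higher (-0.56 ± 0.55, adjusted p = 0.771). It had 81, 82 and 44 counts with vehicle, 40, 78 and 59 with R788 + anti-PDL1 and 176, 67 and 88 in the irradiated tumors. The calls of Isl1 and Tph1 were both lost when replicate 2 or 3 of vehicle, or replicate 1 or 3 of R788 + anti-PDL1, was left out. The 8 mast cell markers were all tested. Their summed level was 3.78 to 15.02 CPM with vehicle, 54.7 to 83.1 with R788 + anti-PDL1 and 7.17 to 15.2 in the irradiated tumors. All 8 had a log2 fold change above 0 in R788 + anti-PDL1 against vehicle, with a median of 3.40, and none was called by edgeR. Without overlap 7 were higher, as were 13.6% of all genes. Tpsab1, Fcer1a and Ms4a2, named after their values were seen, passed the filter only through the R788 + anti-PDL1 libraries. Their higher direction, and their part in the median and the non-overlap, were therefore largely set by the filter. Mean Slc18a2 was 2.6 CPM with vehicle, 3.1 with R788 + anti-PDL1 and 2.2 in the irradiated tumors. Mean Ddc was 16.6, 5.44 and 8.66 CPM in the same order. Pearson r with the summed mast cell markers was 0.10 for Slc18a2 and -0.59 for Ddc across the 9 libraries. It was 0.27 and -0.61 over the 8 without Rad + R788 + anti-PDL1 replicate 1. The part of mast cells in the levels of Ddc and Slc18a2 was not tested.

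Summed RNA levels of markers of other cells also varied between tumors. Summed endothelial markers ranged from 50.0 to 58.2 CPM with vehicle, 57.3 to 150 with R788 + anti-PDL1 and 79.5 to 93.0 in the irradiated tumors. Summed macrophage markers ranged from 321 to 681, 711 to 725 and 359 to 1925 CPM, and summed fibroblast markers from 3141 to 3843, 2993 to 5590 and 2574 to 5039 CPM. All genes of these 3 lists were tested, and none was called. Platelet markers, of a cell that also uses VMAT2, summed to 26.3 to 33.5, 18.9 to 25.6 and 17.2 to 73.8 CPM, the 73.8 being Rad + R788 + anti-PDL1 replicate 1. In that library Gp1bb gave 25.8 CPM. The Gp1bb count is uncertain, since Sept5 shares exon sequence with it on the same strand. Gp9 and Treml1 had 5 counts each over all tumors, and these markers were named after their values were seen. None of the 4 tested platelet markers was called. None of the 4 T cell, 4 Schwann cell, 3 keratinocyte, 3 skeletal muscle and 2 adipocyte markers that passed the filter was called either. Across the 9 libraries Pearson r with the summed endothelial markers was -0.93 for Maoa (-0.94 over the 8 without Rad + R788 + anti-PDL1 replicate 1) and -0.75 for Ddc (-0.87). With the summed fibroblast markers it was -0.47 for Maoa (-0.90) and -0.61 for Ddc (-0.57), again as a description. The part of these cells in the Ddc and Maoa levels was not tested.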

How the data were processed

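RNA was measured in 9 whole NB9464 tumors, grouped by the treatment label. The deposited table holds estimated counts per gene symbol from Salmon, which the authors made after mapping to mouse build mm10 with STAR. The values are whole numbers, so rounding and the summing of transcripts were inferred. The submitters' processing notes name STAR 2.6.1d and Salmon 1.4.0. The extraction text names macrophages (BMDMs) while the tissue label is whole tumor, sources differ on the sequencer and read layout, and strand was not given in the sources used here. Counts where exons overlap on opposite strands are therefore uncertain, also for Aldh2, Rab3a, Hand2, Uchl1, Penk and Ache.

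Counts were filtered (filterByExpr, minimum count 10), scaled with TMM factors and tested with edgeR 4.0.16 under R 4.3.3 (robust quasi-likelihood F test, 1 coefficient per group, no covariate), with Benjamini-Hochberg adjustment over 15931 genes and a threshold of 0.05. CPM used TMM library sizes. Identifiers, positions and exon lengths came from GENCODE M21 (GRCm38), where 53669 symbols had 1 identifier, 106 several and 654 none. Promoter windows came from RefSeq (GRCm38.p6). Likeness used log2 CPM with prior count 2. Alternatives used DESeq2 1.42.0, the authors' tool, and limma 3.58.1, other normalizations and filters, left-out libraries and a replicate block.

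Named were all 9 genes, called genes of each other list (otherwise its 2 most abundant and those at 0), and the 2 genes most like each tested one, skipping predicted genes and Rik clones. Some genes of the lists are not reported here. Genes outside this rule are marked as chosen after their values were seen. The genes, lists and tests were chosen with earlier results of these data known.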

Additional observations from a re-analysis of the deposited data

How the results depend on the processing

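Of the alternative values of the 4 genes' log2 fold changes, 165 kept their direction and side of the threshold, 10 turned and 5 passed it. The count of called genes among the 4 rose from 0 to 1 (Ddc) for R788 + anti-PDL1 against vehicle with DESeq2, with limma-voom and sample quality weights, and with only the 6 libraries compared. It rose to 1 for the irradiated tumors against vehicle with the quality weights, and with DESeq2 when Rad + R788 + anti-PDL1 replicate 1 was left out, an alternative added after seeing the data. With single libraries left out in edgeR it stayed at 0 in all 3 comparisons. The cause was not tested.

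Directions turned only for Slc18a2 and Slc6a2, with no call. For the irradiated tumors against vehicle, Slc18a2 was 0.017 with quality weights, 0.22 with DESeq2 without Rad + R788 + anti-PDL1 replicate 1, and -0.64 to 0.24 with single libraries left out. Slc6a2 was -0.10 with quality weights and -0.32 to 1.90 with libraries left out. It ranged from -0.18 to 2.04 for R788 + anti-PDL1 against vehicle and from -0.43 to 0.11 for the irradiated tumors against R788 + anti-PDL1.

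Genes called over the whole table for R788 + anti-PDL1 against vehicle numbered 108 with edgeR, 726 with DESeq2, 4835 with quality weights, 594 with the 6 libraries and 0 with the replicate block. For the irradiated tumors against vehicle they numbered 7, 553, 1993, 1 and 3, and against R788 + anti-PDL1 they numbered 1, 646, 3080, 0 and 0. With single libraries left out the edgeR counts ranged from 0 to 75, 1 to 57 and 0 to 21. They were 0 for R788 + anti-PDL1 against vehicle without vehicle replicate 2 or 3 or R788 + anti-PDL1 replicate 1 or 3, and 34 without R788 + anti-PDL1 replicate 2. The 57 and the 21 were without Rad + R788 + anti-PDL1 replicate 1. On the other lists edgeR called 2, 0 and 0 genes, DESeq2 20, 8 and 9, and the quality weights 45, 18 and 22.

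With the number in the sample title as a replicate block, Ddc was -1.67 (adjusted p = 0.115), -1.04 (0.348) and 0.63 (0.348) in the 3 comparisons, and none of the 4 genes was called. Same-numbered libraries deviated together with correlations from -0.05 to 0.23, over 0.1 in 2 of 9 pairs. Of the 9 libraries, 5 correlated best with their own number. With 3 tumors a group these values cannot settle whether the numbers pair the samples. Depth limits Th, Dbh, Chga, Chgb and Slc18a1, which were too low to test.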
